A study of Homo sapiens with 2 samples.

Results

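The microRNA (miRNA) 30 family was examined in the H460 line, derived from a large cell carcinoma of the human lung (a non-small cell tumour) and known to carry a mutated KEAP1. Its members were chosen by name: hsa-miR-30a-5p, hsa-miR-30b-5p, hsa-miR-30c-5p, hsa-miR-30d-5p, hsa-miR-30e-5p and hsa-miR-30e-3p, where hsa stands for Homo sapiens and is left out below. These were 6 of the 1273 human miRNA probes on the array. One culture condition was vehicle for 48 hours and the other was sulforaphane for 48 hours, and both were H460 cells kept in DMEM with fetal bovine serum. Sulforaphane, an isothiocyanate made from a precursor in broccoli, releases the transcription factor NRF2 from its inhibitor KEAP1. Neither its dose nor the nature of the vehicle is given in the sources used here. Each condition was measured on 1 array, a single-colour Hy3 hybridisation to locked nucleic acid capture probes, so no difference below has a replicate check and no p-value is given.

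miR-30 miRNAs are small RNAs cut from hairpin precursors, and each hairpin can yield a 5p and a 3p arm. The 5p arms carry one shared seed, the stretch near the 5′ end that pairs with target messenger RNAs. In lung and other epithelial cells the family is known for repressing SNAI1, a driver of epithelial-mesenchymal transition, and miR-30a for repressing the autophagy gene BECN1. In non-small cell lung cancer cells, miR-30b and miR-30c have been placed downstream of the EGFR and MET receptors. The family is encoded by 6 genes at 3 loci. By RefSeq's gene annotation (GRCh38.p14), MIR30E and MIR30C1 lie 2837 bases apart on chromosome 1, within NFYC, a subunit gene of the transcription factor NF-Y. MIR30C2 and MIR30A lie 26519 bases apart on chromosome 6, with no annotated gene spanning them. MIR30B and MIR30D lie 4268 bases apart within the zinc finger gene ZFAT.

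The mature sequences below are shown because the members differ by few bases, which bears on how far their probes can separate them. They come from RefSeq (GRCh38.p14), where 4 of the 6 members matched an entry, and are written 5′ to 3′ with the seed, bases 2 to 8, in capitals. miR-30a-3p, which is no member, is added for its likeness to miR-30e-3p.
miR-30a-5p: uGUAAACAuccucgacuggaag
miR-30c-5p: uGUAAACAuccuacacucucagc
miR-30e-5p: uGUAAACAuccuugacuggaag
miR-30e-3p: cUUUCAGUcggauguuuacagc
miR-30a-3p: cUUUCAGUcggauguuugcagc
These fall into 2 seed groups. The seed of the 5p arms was held by 3 of the 2370 mature miRNA names in that table, and all 3 are the miR-30 arms shown. miR-30b-5p and miR-30d-5p had no entry there, so this count could not include them. The seed of the 3p arms shown was held by 2, miR-30a-3p and miR-30e-3p. The 3p arms of MIR30C1 and MIR30C2, not shown, carry another seed. Counting positions from 1 at the 5′ end, miR-30a-5p and miR-30e-5p differed at 1 position of 22, C13U, with the base of miR-30a-5p written first. miR-30e-3p and miR-30a-3p also differed at 1 position, A18G, with the base of miR-30e-3p first. miR-30c-5p shared its first 12 bases with miR-30a-5p and differed from it at 5 of the 22 positions compared, all of them in the 3′ part.

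The hairpin of MIR30E is shown because both of its arms were measured as members. It is the 92-base precursor at chr1:40754355-40754446 on the plus strand, with both mature arms in capitals.
MIR30E: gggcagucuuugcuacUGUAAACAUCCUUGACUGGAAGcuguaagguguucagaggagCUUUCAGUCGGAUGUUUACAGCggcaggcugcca
The hairpin of MIR30A, 71 bases at chr6:71403551-71403621 on the minus strand, is set beside it because its arms are the closest in sequence.
MIR30A: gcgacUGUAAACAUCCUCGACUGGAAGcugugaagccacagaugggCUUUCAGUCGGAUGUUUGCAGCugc
One transcript supplies both arms of a hairpin, and miR-30c-5p can come from either MIR30C1 or MIR30C2, so a reading of its probe has 2 possible genes behind it. The probes' own sequences were not used here, and cross-hybridisation between arms that differ by 1 base was not tested.

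Intensities are the authors' normalized values, the background-subtracted signal divided by 1 factor per array, and have no unit. A probe counted as detected where its value exceeded the 95th percentile of the 143 probes for viral miRNAs on that array. This floor was 6.44 with vehicle and 5.52 with sulforaphane, and 168 human miRNA probes exceeded it on both arrays. Probes differ in affinity, so levels of different probes do not order the miRNAs by abundance. In such bulk RNA, fewer cells carrying a miRNA and less of it per cell cannot be told apart. Of the markers of carcinoma lines, miR-21-5p, miR-31-5p, miR-221-3p and miR-222-3p were all detected. None of 6 epithelial, 6 blood and immune or 1 liver marker exceeded the floor on either array. Over all human probes 13.2% exceeded it on both, so a count of 0 among 6 says little about these markers. Of 4 muscle markers, miR-206 exceeded the floor with vehicle alone (6.61, and 1.80 with sulforaphane). The endothelial marker miR-126-3p (6.24 and 8.69) and, of 2 neuronal markers, miR-9-5p (5.78 and 6.46) did so with sulforaphane alone. The part of such RNA in the results below was not tested.

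On the authors' scale every member read higher on the sulforaphane array, by 1.03-fold for miR-30e-3p to 1.66-fold for miR-30b-5p. None reached 2-fold. miR-30d-5p, under the floor with vehicle, is included at its measured value. The 5 members detected on both arrays also all read higher with sulforaphane. This direction was that of the array as a whole, since 82.7% of the 168 detected miRNAs also had a ratio above 1, with a median log2 ratio of 0.38. The direction also depended on the scaling: with the arrays scaled to the spike-in probes only miR-30b-5p kept a ratio above 1. The members also differed among themselves. miR-30b-5p, miR-30c-5p and miR-30e-5p exceeded the median ratio of detected miRNAs, and miR-30e-3p was below it. Of the 7 other scalings, 5 use 1 factor per array and cannot change a position relative to that median. The remaining 2, quantile and cyclic loess, left these 4 members on the same side of it. The other detected member, miR-30a-5p, was below the median on the authors' scale but 0.02 above it under quantile normalization. With the floor added to each value, miR-30e-5p fell just below the median (0.21 against 0.22).

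miR-30c-5p was the member farthest above the floor on both arrays. It read 30.4 with vehicle and 41.7 with sulforaphane, which was 4.72 and 7.55 times the floor. The log2 ratio was 0.46, and 64 of the 168 detected miRNAs had a higher one. It lay 0.07 above the median of detected miRNAs on the log2 scale, and under quantile and cyclic loess normalization 0.05 above their medians. miR-30c-5p thus sat close to the centre of the profile.

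miR-30a-5p, the arm known for repressing BECN1, read 14.5 with vehicle and 17.7 with sulforaphane. Both values exceeded the floor, by 2.25 and 3.20 times. Its log2 ratio of 0.28 lay 0.10 below the median of detected miRNAs (difference -0.10). Under quantile normalization the ratio lay 0.02 above that median. Its sign was below 0 under 5 of the 7 other scalings, which gave values from -0.42 to 0.44.

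miR-30b-5p had the widest difference of the family. Its signal was 10.3 with vehicle and 17.2 with sulforaphane, a ratio of 1.66 and a log2 ratio of 0.73. Before scaling, these were 1154 and 2134.5 background-subtracted units. Only 11 of the 168 detected miRNAs had a higher ratio. Under spike-in scaling the log2 ratio was 0.03, and it was between that and 0.89 under the 7 other scalings. Relative to the median of detected miRNAs it was 0.35 higher on the authors' scale and up to 0.45 higher under quantile normalization. Its vehicle reading was 1.61 times the floor. With the floor added to each value, its log2 ratio was 0.44 against a median of 0.22.

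miR-30d-5p, whose gene lies next to that of miR-30b in a region often gained in tumours, was under the floor with vehicle. It read 6.24 there and 7.81 with sulforaphane. Measured against the vehicle floor, it was at least 1.21-fold higher with sulforaphane on the authors' scale. The measured log2 ratio was 0.32 and is not counted among detected members. Under the 7 other scalings this measured log2 ratio ran from -0.38 to 0.48 and was below 0 under 3.

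miR-30e-5p was at the edge of detection with vehicle. It read 6.48 there, 1.01 times the floor, and 9.43 with sulforaphane, 1.71 times the floor. These were 722 and 1169.5 background-subtracted units. The log2 ratio was 0.54, 0.16 above the median of detected miRNAs, and 38 of the 168 had a higher one. With the floor added to each value, its log2 ratio of 0.21 was under the median of 0.22. Its ratio was below 1 under spike-in scaling alone among the 7 other scalings.

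miR-30e-3p, the other arm of the same hairpin, carries a different seed and so a different set of possible targets. It read 8.48 with vehicle and 8.74 with sulforaphane, 945 and 1083.5 background-subtracted units. The log2 ratio of 0.04 was the lowest of the family, with 136 of the 168 detected miRNAs above it. It lay 0.34 below the median of detected miRNAs (difference -0.34), and its sign was below 0 under 6 of the 7 other scalings.

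**Figure D1:**
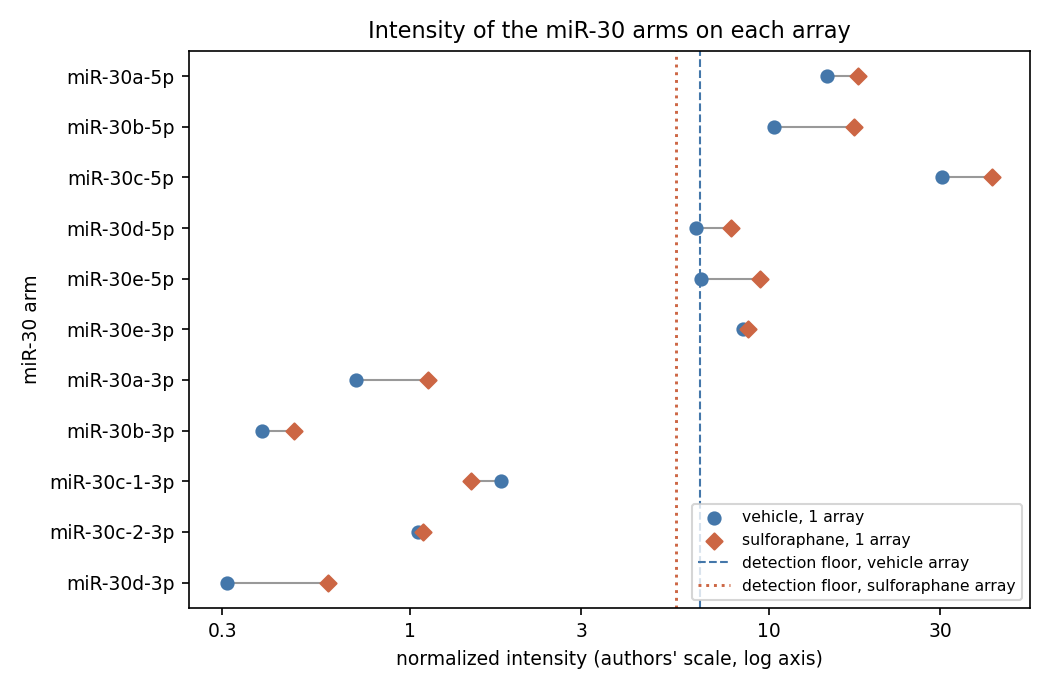
Normalized intensity (log axis) of the 11 miR-30 arms on the array, with circles for the vehicle array, diamonds for the sulforaphane array and vertical lines for the floors of 6.44 and 5.52; each arm has 1 value per condition. The 6 members sit at or above the floors apart from miR-30d-5p with vehicle, and the 5 other 3p arms sit at or below 1.79 on both arrays; distances between rows are not differences in abundance, since probes differ in affinity.

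The array also held the 5 other 3p arms of the family, usually the less retained arms of their hairpins. None exceeded the floor on either array. Over all human probes 14.3% exceeded it with vehicle and 16.7% with sulforaphane, so a count of 0 among 5 says little about these arms. Their values ran from 0.309 to 1.79 with vehicle and from 0.476 to 1.48 with sulforaphane, so no ratio is given for them. miR-30a-3p, whose sequence differs from that of miR-30e-3p by 1 base, read 0.709 and 1.13, against 8.48 and 8.74 for the miR-30e-3p probe. The plot of intensities by arm shows this gap between the members and the 5 other arms. miR-30e was thus the 1 hairpin of the family with both arms above the floor on both arrays.

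By the size rule of 2-fold, 0 of the 5 detected members differed. Among all 168 detected human miRNAs, 2-fold or more separated the arrays for 6 (3.57%) in favour of sulforaphane and for 2 (1.19%) in favour of vehicle. With shares this small, a count of 0 among 5 cannot be told from the background. At 1.5-fold, 1 member, miR-30b-5p, was higher, against 27 of the 168 (16.1%). The median log2 ratio of the 5 detected members was 0.46, against 0.38 for all detected miRNAs, and 3 of the 5 lay above that median. The 6 probes together held 1.19% of the summed human miRNA signal with vehicle and 1.26% with sulforaphane, a share that no single scaling factor can change.

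**Figure D2:**
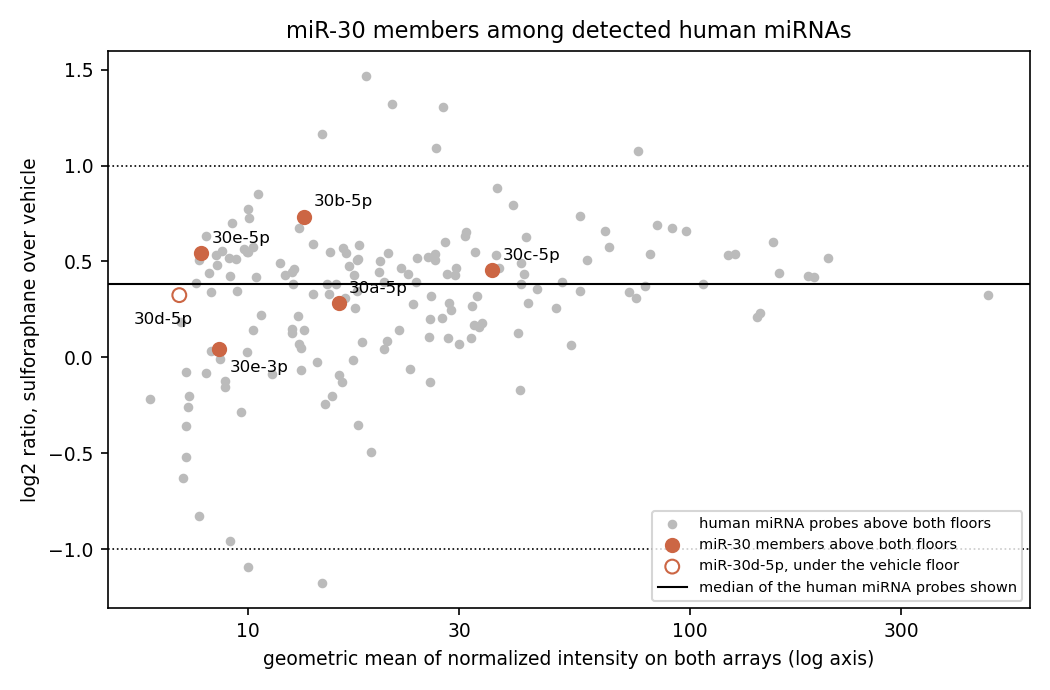
Log2 ratio, sulforaphane over vehicle, on the authors' scale against the geometric mean of normalized intensity (log axis) for the 168 human miRNA probes above both floors (grey), with the miR-30 members in colour and miR-30d-5p, under the vehicle floor, as an open circle. The solid line is the median of 0.38 and the dotted lines mark 2-fold; all members lie between the dotted lines, miR-30b-5p at 0.73 and miR-30e-3p at 0.04.

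The position of the members in that plot bears on how far their ratios can be read. Dim probes scattered more: the log2 ratios of the 84 dimmer detected miRNAs had an SD of 0.44 between probes, and those of the 84 brighter ones an SD of 0.31. The boundary between these sets was a geometric mean of normalized intensity on both arrays of 18.0. miR-30c-5p was among the brighter and the other detected members among the dimmer. The 41 detected spike-in probes, synthetic RNAs that carry nothing from the cells, had log2 ratios with a median of 0.68 and an SD of 0.20 between probes. That spread holds none of the variation between cultures, and most spike-in probes were brighter than the members. Local background around the members' spots was 37 to 47.5 units with vehicle and 54.5 to 74.5 with sulforaphane, close to the array medians of 41 and 61. No member's spot was near the scanner limit, the highest foreground being 5233 of 65535.

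Genomic pairs were compared next, because miRNAs of one primary transcript can share changes in transcription. A difference between 2 log2 ratios does not depend on a single factor per array. For 2 independent spike-in probes such a difference would have an SD of 0.29, and for 2 of the dimmer detected miRNAs an SD of 0.62. These values serve as yardsticks between probes and are not errors of the pairs.

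The pair on chromosome 1 was miR-30c-5p and miR-30e-5p. Their log2 ratios were 0.46 and 0.54, a difference of -0.09, smaller in size than both yardsticks. miR-30c-5p over miR-30e-5p stood at 4.69 with vehicle and 4.42 with sulforaphane in signal, which is a comparison of the 2 arrays and not of abundance. Quantile normalization widened the difference to -0.32 and cyclic loess to -0.21, and adding the floor to each value turned it to 0.15.

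The pair on chromosome 6, miR-30c-5p and miR-30a-5p, had log2 ratios of 0.46 and 0.28. The difference of 0.17 was also smaller than both yardsticks. It was 0.02 by quantile normalization and 0.11 by cyclic loess, where this pair and not that on chromosome 1 was the closer. miR-30c-5p belongs to this pair and to the one on chromosome 1, as its probe reads the product of both genes.

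For the pair on chromosome 8, miR-30b-5p and miR-30d-5p, no exact difference can be given, since miR-30d-5p was under the floor with vehicle. On the authors' scale miR-30b-5p was 1.66-fold higher with sulforaphane, and miR-30d-5p at least 1.21-fold higher against the floor. The measured log2 ratios, 0.73 and 0.32, lay 0.41 apart. This exceeded the spike-in yardstick of 0.29 but not the 0.62 of the dimmer miRNAs. It was 0.30 by quantile normalization, 0.35 by cyclic loess and 0.36 with the floor added to each value. Whether these neighbours differ in ratio is not settled by these values.

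The 2 arms of miR-30e were compared in the same way. With log2 ratios of 0.54 for the 5p arm and 0.04 for the 3p arm, the difference was 0.50, or 1.41-fold. The signal of the 5p probe over that of the 3p probe was 0.764 with vehicle and 1.08 with sulforaphane. This difference exceeded the spike-in yardstick but not the 0.62 of the dimmer miRNAs, and the 5p arm was at 1.01 times the floor with vehicle. It narrowed to 0.28 when the floor was added to each value. The widest gap between any 2 detected members was 0.69, between miR-30b-5p and miR-30e-3p.

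**Figure D3:**
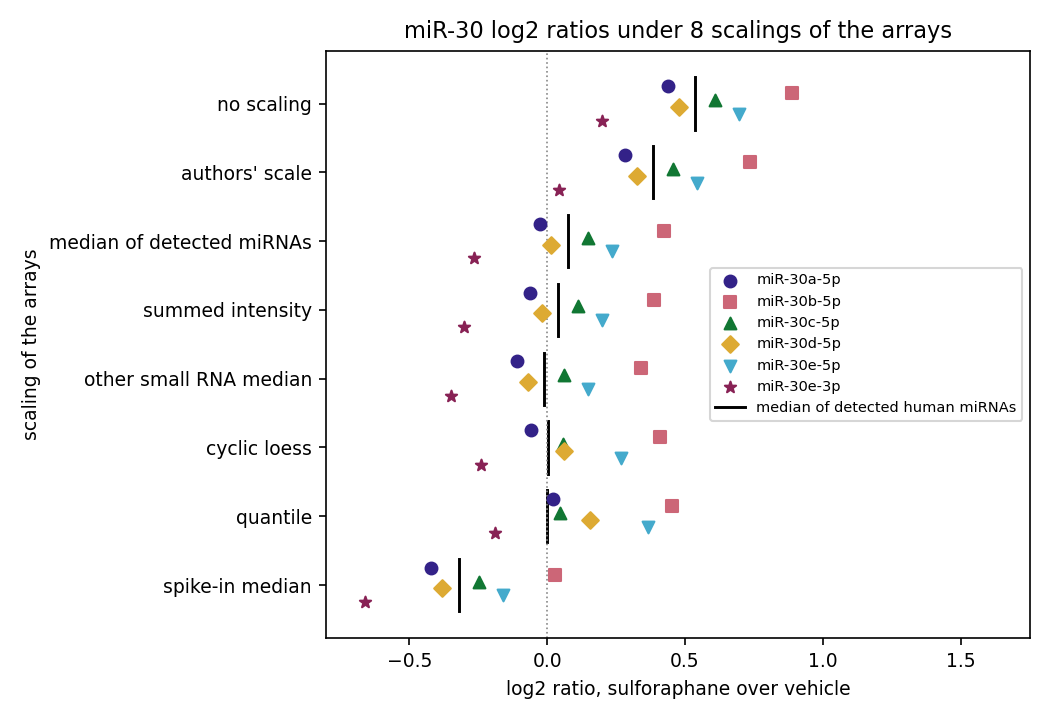
Log2 ratio, sulforaphane over vehicle, of the 6 members (symbols) under the authors' scale and 7 other scalings of the 2 arrays, with the median of the 168 detected human miRNAs as a black bar in each row. The members shift together with the bar, from a median of 0.54 without scaling to -0.32 under spike-in scaling, with miR-30b-5p to the right of it and miR-30e-3p to the left; under the 5 scalings by 1 factor per array the spacing is fixed. miR-30d-5p, under the vehicle floor, is drawn at its measured value.

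The scaling moved the whole profile more than it moved the members within it. For the 5 scalings by 1 factor per array this is fixed by arithmetic. Only quantile and cyclic loess normalization could move members relative to the median, and under quantile normalization miR-30a-5p changed side. Relative to the authors' scale, the median of detected miRNAs shifted by 0.15 without scaling, by -0.31 to -0.39 under 5 of the other scalings and by -0.70 under spike-in scaling. The number of members with a ratio above 1 was 6 of 6 on the authors' scale and without scaling. It was 5 under quantile normalization, 4 under cyclic loess and under scaling to the detected median, 3 under summed intensity and under small RNA scaling, and 1 under spike-in scaling. These counts include the measured value of miR-30d-5p. The order of the ratios of the 5 detected members was miR-30b-5p, miR-30e-5p, miR-30c-5p, miR-30a-5p and miR-30e-3p. Quantile and cyclic loess normalization gave the same order, and with the floor added to each value miR-30c-5p passed miR-30e-5p. On the authors' scale, neighbours in this order differed by less than the spike-in yardstick of 0.29. Under quantile normalization miR-30c-5p minus miR-30e-5p was -0.32, which is wider than that yardstick.

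Other families whose members also share a seed were set beside miR-30 to place it. The let-7 family, known for holding back RAS genes and MYC, had 7 of 9 members detected, with log2 ratios from 0.09 (let-7a-5p) to 0.54 (let-7i-5p) and a median of 0.39. Of the miR-26 pair, miR-26b-5p was detected (0.53, from 30.2 to 43.7) and miR-26a-5p was under the floor (2.86 and 2.36). The 3 miR-29 members, which target DNA methyltransferases, ran from 0.42 (miR-29a-3p) to 0.66 (miR-29b-3p). The 5 detected miR-30 members covered 0.04 to 0.73, a span of 0.69. Leaving out the 3p arm, the 4 detected 5p arms ran from 0.28 to 0.73 with a median of 0.50. No family had a member past 2-fold.

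**Figure D4:**
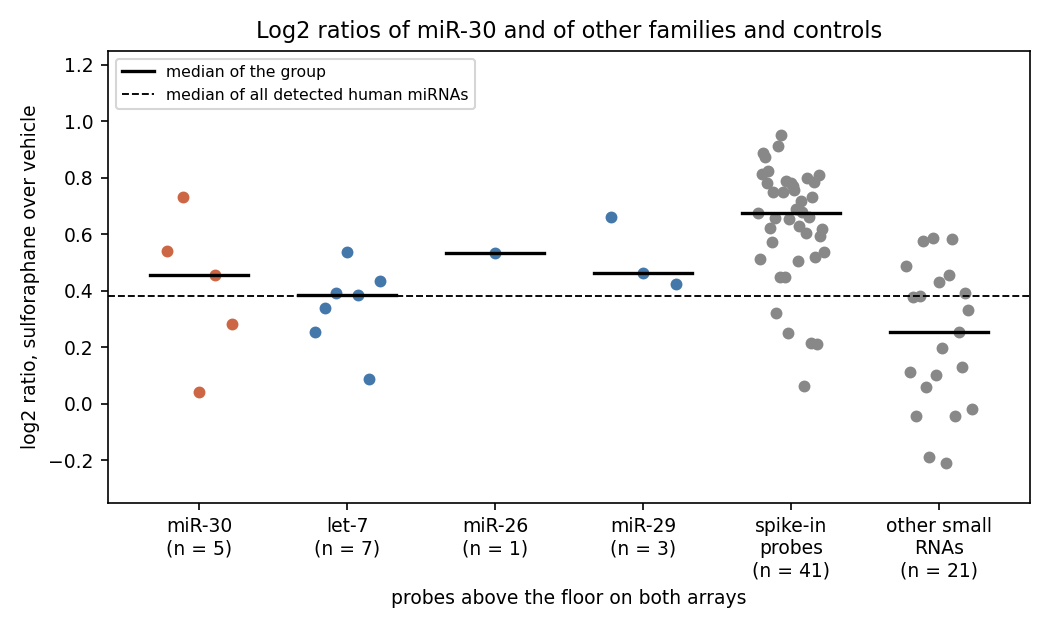
Log2 ratio, sulforaphane over vehicle, on the authors' scale for probes above the floor on both arrays: 5 miR-30 members, 7 of let-7, 1 of miR-26, 3 of miR-29, 41 spike-in probes and 21 other small RNAs. Each point is a probe, the bars are medians and the dashed line is the median of all detected miRNAs (0.38); the miR-30 points run from 0.04 to 0.73 around a median of 0.46, and points are spread sideways for legibility only.

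Of 9 other miRNAs that restrain epithelial-mesenchymal transition, 2 exceeded the floor on both arrays and 0 on one array alone. Of all human probes, 13.2% exceeded it on both. The 9 include the 6 epithelial markers above, so the lack of detection of those 6 is not a second result. miR-34a-5p, a p53 target, read 23.2 and 28.9, a log2 ratio of 0.32. miR-138-5p read 9.75 and 10.8, a log2 ratio of 0.14. Neither passed the size rule, and both lay below the median of detected miRNAs. The sign of the former was below 0 under 5 of the 7 other scalings and that of the latter under 6.

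With 2 arrays, likeness of pattern can only mean similar readings. The geometric mean of the 5 detected members was 12.0 with vehicle and 16.0 with sulforaphane. The 3 detected miRNAs nearest to it were miR-2115-3p (12.5 and 15.7), miR-27b-3p (11.4 and 17.2) and miR-33b-5p (13.2 and 17.2). Their log2 ratios were 0.33, 0.59 and 0.38.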

How the data were processed

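The deposited workbook held, for every probe of 2 arrays, intensity before and after background subtraction and a normalized value, per the file headers. That normalized value was a ratio made by the authors: background-subtracted intensity over 1 factor per array, 111.5 for vehicle and 124 for sulforaphane. Folds computed from it equalled those in the authors' deposited table. No header or label states the scanner, the software or how the factors were chosen. Values in the series matrix matched for all 2661 probes, with medians of 0.771 and 0.819. Total RNA came from TRIzol and a column kit, per the labels' protocols.

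Log2 ratios were computed without an added value, and the ratio calculation was tested on simulated data. The simulated folds were placed in probes brighter with vehicle than every member but miR-30c-5p, so that test did not cover most members. Named miRNAs were all members, the family's other arms, the extremes of the let-7, miR-26 and miR-29 families, detected miRNAs of a fixed list on epithelial-mesenchymal transition and the 3 nearest probes. The members and lists were chosen with earlier results of these data known. Scalings were none, detected median, summed intensity, spike-in, small RNA, quantile and cyclic loess (limma 3.58.1 in R 4.3.3). Other floors, a 1.5-fold rule and foreground values were also tried. Python 3.11.15 with numpy 2.4.6 and pandas 2.3.3 was used. The number of arrays limits the precision.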

Additional observations from a re-analysis of the deposited data

How the results depend on the processing

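A value was taken as moved where it changed by at least 0.20, the SD between spike-in probes on the log2 scale. The median log2 ratio of the 5 detected members was 0.46 on the authors' scale. It became 0.15 when scaled to the detected median, 0.11 to summed intensity, 0.0612 to small RNAs, 0.0570 by cyclic loess, 0.0462 by quantile normalization, -0.25 to spike-in probes and 0.21 with the floor added. The members at least 2-fold apart numbered 0 under every scaling and floor tried, and 1 at 1.5-fold. The difference of miR-30c-5p minus miR-30e-5p moved to -0.32 by quantile normalization and 0.15 with the floor added, and that of the miR-30e arms, 5p minus 3p, to 0.28 with the floor added. With the floor at the viral median all 6 members were included (median 0.39), and at the 99th percentile only miR-30c-5p was (0.46). Leaving out members under 1.5 times the vehicle floor, chosen after seeing the data, left the median at 0.46. That median is the ratio of miR-30c-5p itself. The detected members left out, miR-30e-5p and miR-30e-3p, lay on either side of it, so it could not change. The cause of these shifts was not tested. No paired analysis was possible because each group held 1 array.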

Other observations

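The gap between the arms of miR-30e can be placed among other hairpins, a comparison chosen after its values had been seen. There were 10 hairpins with both arms above the floor on both arrays, matched by the shared name before the arm. The absolute difference between the log2 ratios of the 2 arms ran from 0.10 to 1.17 with a median of 0.35. The 0.50 of miR-30e was exceeded by 3 of the others. The 5p arm had the higher ratio in miR-30e and in 2 of the others, let-7i and miR-29a. The 3p arm had the higher ratio in 7, among them the 3 with a wider gap, miR-183, miR-22 and miR-335 (5p minus 3p of -1.17, -1.07 and -0.90).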
